A study of Sus scrofa with 36 samples.

Results

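DNA replication licensing genes of the pig heart are described here across an infarct model of newborn piglets. The genes are 10 named members of the licensing machinery and its close partners, MCM2, MCM3, MCM4, MCM5, MCM6, MCM7, MCM10, CDC6, CDT1 and PCNA, chosen by pig gene symbol among the 25880 rows of the deposited count table. A row was found for 9 of the 10, and 8 of these had counts and entered the tests. MCM5 lies on an unplaced scaffold in this table, and its count was 0 in all 36 libraries, as were the counts of all 1522 rows on unplaced scaffolds, against 16.6% of the rows on chromosomes. No level can be given for it. PCNA had no row under that symbol and was not analysed here.

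The hearts came from 24 Yorkshire-landrace pigs, of which 12 had branches of the left coronary arteries permanently tied and 12 had sham surgery. Piglets were operated on at 2 days of age (called Young) or at 14 days of age (called Old), and their hearts were harvested 1 day (Early) or 1 week (Late) after that. An infarcted heart was sampled in its infarct zone (IZ) as well as its border zone (BZ), and a sham-operated heart in the anterior wall of its left ventricle (Sham), 1 library each time. This makes 36 libraries in 12 groups of 3, with pigs of 3, 9, 15 and 21 days of age at harvest in Young Early, Young Late, Old Early and Old Late. IZ and BZ of a condition come from the same 3 pigs and are set against the same 3 Sham libraries, so their differences from Sham are not independent of each other.

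Before a cell can copy its DNA, the origin recognition complex binds replication origins and, with CDC6 and CDT1, loads the ring-shaped helicase built from MCM2 to MCM7. This loading is called licensing, and geminin (GMNN) blocks CDT1 so that an origin is not licensed again in the same cycle. When synthesis starts, CDC45 and the GINS proteins join the ring, MCM10 helps to set it in motion, and PCNA clamps the polymerases to the template. Most licensing genes are transcribed under E2F control in cells that enter the cycle, and mammalian heart muscle cells largely leave the cycle soon after birth.

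Levels are in CPM, the counts of a gene brought to a common library size, with sizes corrected by the trimmed mean of M-values (TMM). Between 8.11 M and 39.8 M counts were summed per library (median 22.6 M). Differences are on the log2 scale and carry the standard error (SE) of an edgeR quasi-likelihood fit over 14537 genes, with n = 3 in each group. A gene is called, and said to have risen or fallen, at a Benjamini-Hochberg adjusted p under 0.05 over all genes. All Young Early libraries were prepared in batch 1, all Old Early ones in batch 2 and all Old Late ones in batch 3, and the Young Late libraries were split over batches 1 and 2. Old Late Sham, the only Sham group of batch 3, cannot be told apart from its batch, and a batch term for the other Sham comparisons rests on the split Young Late libraries. IZ or BZ against Sham was compared within 1 batch except in Young Late. The tissue was taken whole, so that fewer cells of a type and less RNA per cell cannot be told apart. The Young Late Sham libraries differed widely among themselves, with an MCM2 level of 60.75, 30.7 and 14.2 CPM, and replicate 2 had the lowest total of the series. Young Early BZ replicate 2, the library with the highest total, was the highest of its group for every measured gene but MCM6, most widely for MCM3 and CDT1. For MCM6 it was the lowest. Mitochondrial genes took 10.1% of its counts, against 26.3% and 29.9% in the other 2, and the part of this was not tested.

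Per kilobase of exon, CDC6 and MCM10 lay below the 5 measured ring subunits and CDT1 in every group mean, while the place of CDT1 depended on the group. The median over the 36 libraries was 5.84 CPM per kb for MCM7, 5.66 for MCM2, 5.44 for MCM4, 5.23 for MCM6 and 4.58 for MCM3. CDT1 had a median of 3.78 CPM per kb, MCM10 of 0.664 and CDC6, the scarcest, of 0.349. CDT1 averaged 11.9 CPM per kb in Young Late IZ, with every library above those of MCM3, and had the highest mean of the 8 genes in Young Early BZ, 6.61 ± 6.25 CPM per kb (SD, n = 3), while in Old Late Sham it averaged 1.65 CPM per kb, below all 5 subunits. CDC6 rested on 9 to 136 counts per library, so counting error adds to its spread. The ratio of the highest to the lowest library, in CPM, was 12.9 for CDT1, 12.0 for MCM4, 11.4 for MCM2, 10.99 for MCM3, 9.82 for CDC6, 9.25 for MCM10, 6.54 for MCM6 and 3.19 for MCM7.

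The table gives the position of each gene, on a build not named in the sources used here. MCM2 lies on chromosome 13 at 72629882 to 72650725, MCM3 on chromosome 7 at 46084662 to 46104430, MCM4 on chromosome 4 at 79672783 to 79687307 and MCM6 on chromosome 15 at 15917042 to 15979389. MCM7 lies on chromosome 3 at 8001458 to 8014061, MCM10 on chromosome 10 at 48480712 to 48523893, CDC6 on chromosome 12 at 22097390 to 22116165 and CDT1 on chromosome 6 at 893381 to 897627. Exons of MCM4 share 657 bases with PRKDC on the other strand. Exons of MCM7 share 1134 bases with COPS6 and 572 with AP4M1 on the other strand, and 572 with TAF6 on its own strand. The strand setting of the counting is not given in the sources used here, so the levels of MCM4 and MCM7 are uncertain to that extent. PRKDC, COPS6 and AP4M1 were called in 0 of the 8 comparisons of a zone with Sham, and TAF6 in 1, lower in Young Early IZ by 0.65 (-0.65 ± 0.17, edgeR adjusted p = 0.00546).

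The groups with the highest mean levels were the zones of pigs infarcted at 2 days and taken a week later. Young Late BZ and Young Late IZ led for MCM2, MCM3, MCM4, MCM7, CDC6 and CDT1, and Young Late IZ led for MCM10 with 10.98 ± 1.06 CPM (SD, n = 3). MCM6 departed from this order, with its highest mean in Old Late IZ, 30.6 ± 7.33 CPM (SD, n = 3). Old Early Sham had the lowest mean for MCM2, MCM3, MCM4, MCM7, MCM10 and CDC6. MCM6 was lowest in Young Early Sham, where its 6.83 ± 1.32 CPM (SD, n = 3) lay below every library of the next group, Old Early Sham, with 14.0 ± 1.03 CPM. When each of the 8 genes was put on a common scale (z-score over the 36 libraries) and averaged, Young Late BZ stood at 1.35 ± 0.17 and Young Late IZ at 1.32 ± 0.06, which overlapped. Young Late IZ did not overlap with the next group, Young Early IZ, at 0.386. Further down, Young Late Sham stood at 0.061 ± 1.05 (SD, n = 3), Old Late Sham at -0.618, Young Early Sham at -1.06 and Old Early Sham at -1.29, and all other neighbours in the order overlapped.

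**Figure D1:**
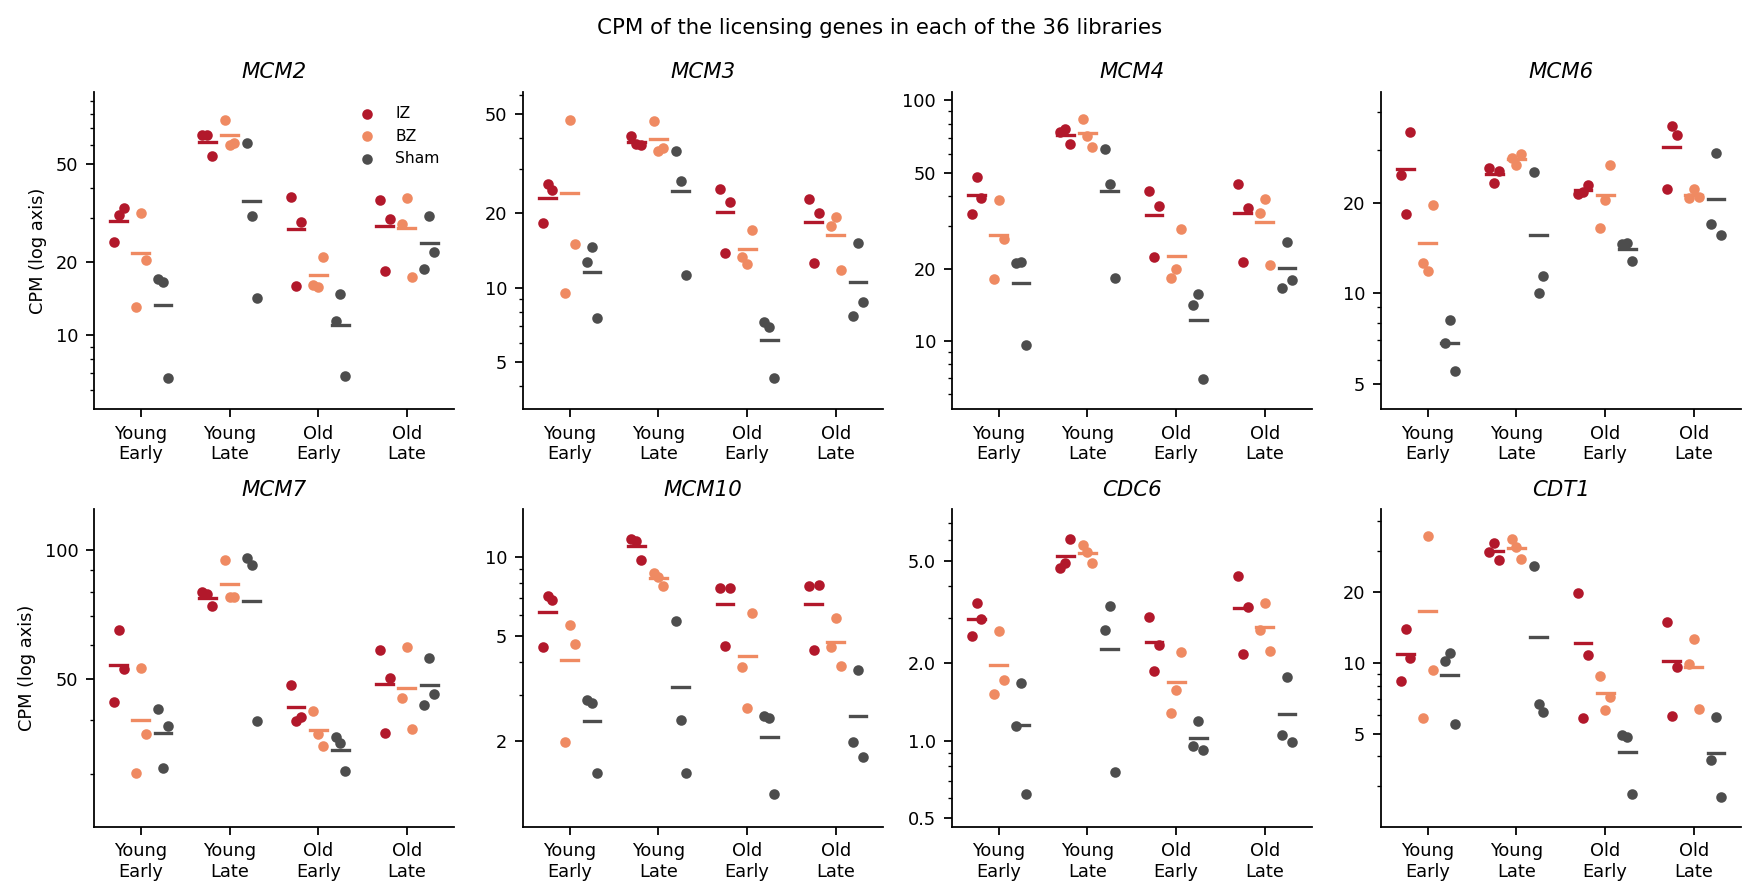
Level of each of the 8 measured genes in every library, in CPM on a log axis, with IZ, BZ and Sham from left to right within each condition and a line at each group mean (n = 3). The Young Late zones are the highest groups for most genes, while MCM6 is lowest in the Young Early Sham libraries at 5.50 to 8.14 CPM.

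At 1 day after infarction MCM2 and MCM4 rose in IZ at both ages, MCM6 was called in the Young and MCM3 in the Old pigs, and MCM7 was called at neither age. EdgeR called the gap between the ages for 0 of the 5 subunits (adjusted p = 0.0779 for MCM6 and 0.425 for MCM3), and DESeq2 called that of MCM6 (adjusted p = 0.045). None of the 8 genes was called lower in any comparison of a zone with Sham. Of all genes, 12%, 13%, 14.8% and 24% were called lower in Young Early, Young Late, Old Early and Old Late IZ, and 0.33%, 6%, 8.46% and 19.7% in BZ of the same conditions. In Young Early IZ, 5 of the 8 genes were called higher, where 15.2% of all genes were called higher. In 7 of the 8, every IZ library lay above every Sham library, as it did for 25.5% of all genes. The count of called genes was 1 without Sham replicate 3 and 3 without IZ replicate 2 or IZ replicate 3. MCM6 had 24.8, 18.3 and 34.4 CPM in Young Early IZ, against 6.85, 8.14 and 5.50 CPM in Young Early Sham. The lowest IZ library was thus well above the highest Sham library, and the gene rose by 1.92 ± 0.29 (edgeR adjusted p = 4.8e-05), a call kept without any of the 6 libraries and under all 9 other settings. MCM4 had 33.8, 47.9 and 39.2 CPM in Young Early IZ, against 21.1, 21.4 and 9.63 CPM in Young Early Sham, and rose by 1.21 ± 0.38 (edgeR adjusted p = 0.0187). Its call was lost without IZ replicate 2 (1.07, adjusted p = 0.0549) and without Sham replicate 3 (0.92, adjusted p = 0.111). MCM2 had 24.0, 31.1 and 33.1 CPM in Young Early IZ, against 16.95, 16.4 and 6.67 CPM in Young Early Sham, and rose by 1.13 ± 0.41 (edgeR adjusted p = 0.0406). That call of MCM2 held only without IZ replicate 1, and leaving out any of the other 5 libraries gave log2 fold changes of 0.82 to 1.34 with adjusted p of 0.0514 to 0.196. MCM3 (0.99 ± 0.42, edgeR adjusted p = 0.0762) and MCM7 (0.53 ± 0.24, edgeR adjusted p = 0.102) were not called although their libraries did not overlap. Sham replicate 3 was the lowest library of this condition for every measured gene but MCM7. It had 44.1% of its counts in mitochondrial genes, against 27.1% and 30.0% in the other 2 Sham libraries, and the part of this in the differences was not tested.

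In Old Early IZ, 6 of the 8 genes were called higher, where 19.5% of all genes were called higher. All 8 had every IZ library above every Sham library, as did 26.9% of all genes. The count of called genes was 3 without Sham replicate 3 and also 3 without IZ replicate 1. MCM3 had 24.95, 13.7 and 22.1 CPM in Old Early IZ, against 7.29, 6.92 and 4.32 CPM in Old Early Sham, and rose by 1.72 ± 0.43 (edgeR adjusted p = 0.00274). MCM4 had 41.9, 22.4 and 36.2 CPM in Old Early IZ, against 14.1, 15.7 and 6.96 CPM in Old Early Sham, and rose by 1.46 ± 0.38 (edgeR adjusted p = 0.00408). The calls of MCM3 and MCM4 were kept without each library and under all 9 other settings. MCM2 had 36.7, 15.9 and 28.9 CPM in Old Early IZ, against 11.5, 14.7 and 6.84 CPM in Old Early Sham. IZ replicate 2 lay just above the Sham libraries, and MCM2 rose by 1.31 ± 0.41 (edgeR adjusted p = 0.0153), a call lost without Sham replicate 3 (1.05, adjusted p = 0.0919) and without IZ replicate 1 (1.03, adjusted p = 0.0991). MCM6 had 21.4, 21.7 and 22.9 CPM in Old Early IZ, against 14.6, 14.7 and 12.8 CPM in Old Early Sham. The groups were narrow and apart, but the difference of 0.65 ± 0.28 was not called (edgeR adjusted p = 0.0729), though DESeq2 called it (0.67, adjusted p = 0.0477). MCM7 differed by 0.33 ± 0.24 (edgeR adjusted p = 0.296). RNA integrity numbers were 6.3 to 7.3 in Old Early IZ, lowest in replicate 1, against 7.1 to 7.6 in Old Early Sham. Mitochondrial genes took 18.9% to 30.3% of the counts in Old Early IZ, against 27.6% to 44.1% in Old Early Sham. With RNA integrity as a covariate CDT1 lost its call, MCM6 was called (0.835, edgeR adjusted p = 0.028) and the other calls were kept. The part of the mitochondrial share was not tested.

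At 1 week, edgeR called 0 of the 5 ring subunits in IZ at either age, and so did DESeq2. Unadjusted p-values under 0.05 were those of MCM4 and MCM6 in the Young pigs and of MCM6 in the Old pigs. Other settings made calls. With RNA integrity as a covariate, edgeR called MCM6 in Young Late IZ (adjusted p = 0.0433) and Old Late IZ (adjusted p = 0.0276). In Old Late IZ, limma-voom with the animal as a block called MCM6 (adjusted p = 0.0487). There edgeR called MCM3 and MCM4 with the compared groups alone, and MCM3, MCM4, MCM6 and MCM7 under library totals alone. MCM2 had 65.9, 65.5 and 53.9 CPM in Young Late IZ, against 60.75, 30.7 and 14.2 CPM in Young Late Sham. The IZ libraries were close together and high, the Sham libraries spread over the whole range below and into them, and the difference was 0.81 ± 0.41 (edgeR adjusted p = 0.134). Without Young Late Sham replicate 1, MCM2 (1.48), MCM4 (1.20) and MCM6 (1.22) were called, and the count of called genes was 6 of 8 in place of 2. In Old Late IZ the differences from Sham were 0.81 ± 0.42 for MCM3 (edgeR adjusted p = 0.106), 0.75 ± 0.37 for MCM4 (adjusted p = 0.0949), 0.57 ± 0.28 for MCM6 (adjusted p = 0.088) and 0.23 ± 0.40 for MCM2 (adjusted p = 0.656). MCM7 was level with Sham at 1 week in both ages, at 0.03 ± 0.24 in the Young pigs (edgeR adjusted p = 0.945) and 0.005 ± 0.24 in the Old pigs (adjusted p = 0.989).

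**Figure D2:**
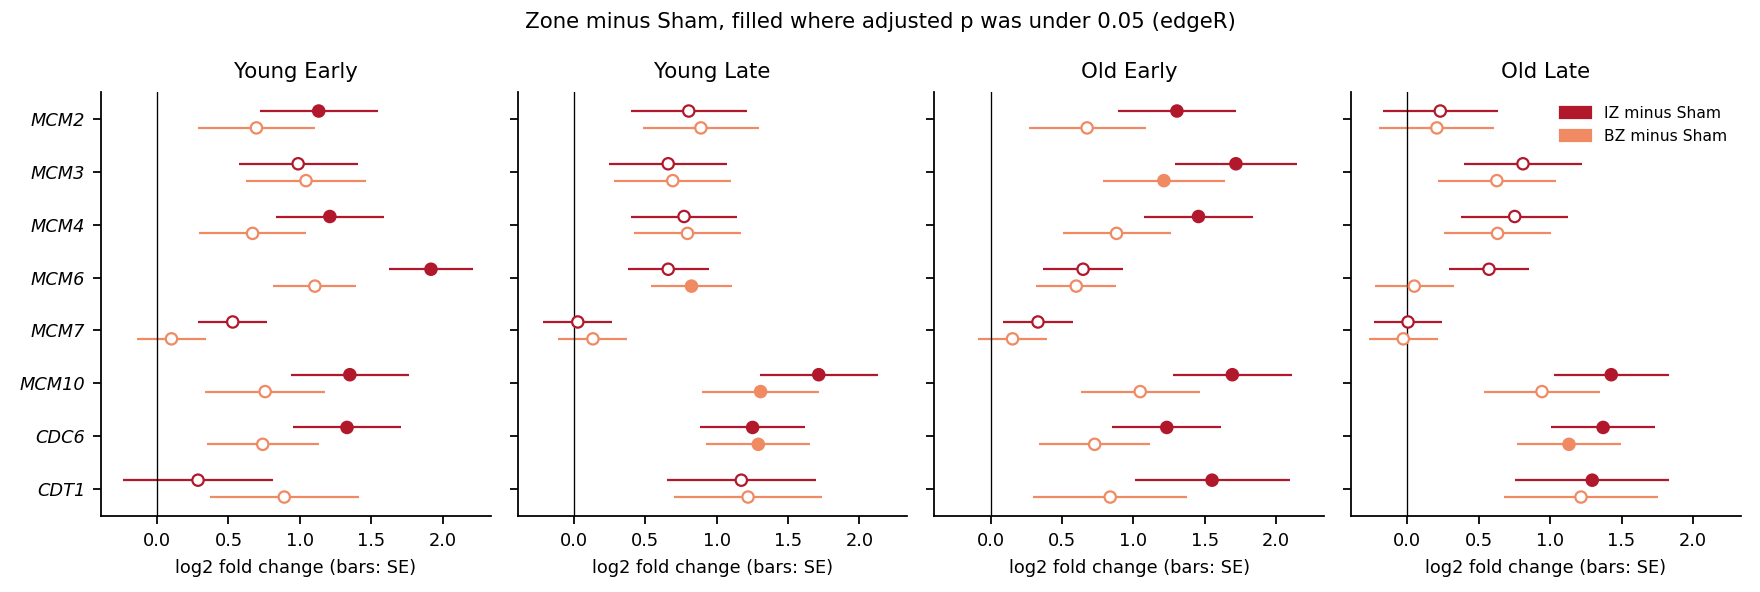
Log2 fold change of each gene in IZ and BZ against the matching Sham group, with bars for the SE of the fit (n = 3 libraries per group) and filled points where the adjusted p was under 0.05. MCM10 and CDC6 are filled for IZ in all 4 conditions, MCM7 in none, and MCM6 stands farthest right in Young Early IZ at 1.92.

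The ring holds its subunits in equal number, and the transcripts of MCM6 and MCM7 took different shares of the summed level per kilobase of the 5 measured subunits across groups. These shares are a description with no test. MCM6 made up 22.1%, 12.9% and 23.7% of the sum in Young Early IZ, against 9.47%, 11.8% and 11.8% in Young Early Sham. In hearts infarcted at 14 days and taken a day later, its mean share was 20.0% in Old Early IZ, 24.1% in Old Early BZ and 25.1% in Old Early Sham. A week after surgery at 2 days of age it was 11.8% in Young Late IZ, 12.7% in Young Late BZ and 11.8% in Young Late Sham, and after surgery at 14 days it was 25.8% in Old Late IZ, 20.1% in Old Late BZ and 21.99% in Old Late Sham. The level of MCM7 itself was called in no comparison of a zone with Sham, with differences of -0.03 (Old Late BZ) to 0.53 (Young Early IZ). For MCM7 the mean share was lower in both zones than in Sham in all 4 conditions. Its range was 19.1% to 19.8% in Young Late IZ, against 24.1% to 33.6% in Young Late Sham, 18.2% to 24.3% in Old Early IZ, against 29.0% to 36.3% in Old Early Sham, and 19.8% to 22.2% in Old Late IZ, against 24.7% to 30.2% in Old Late Sham. IZ and Sham did not overlap in these 3 conditions, and they overlapped in Young Early, where the mean was 21.5% in IZ and 32.9% in Sham.

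**Figure D3:**
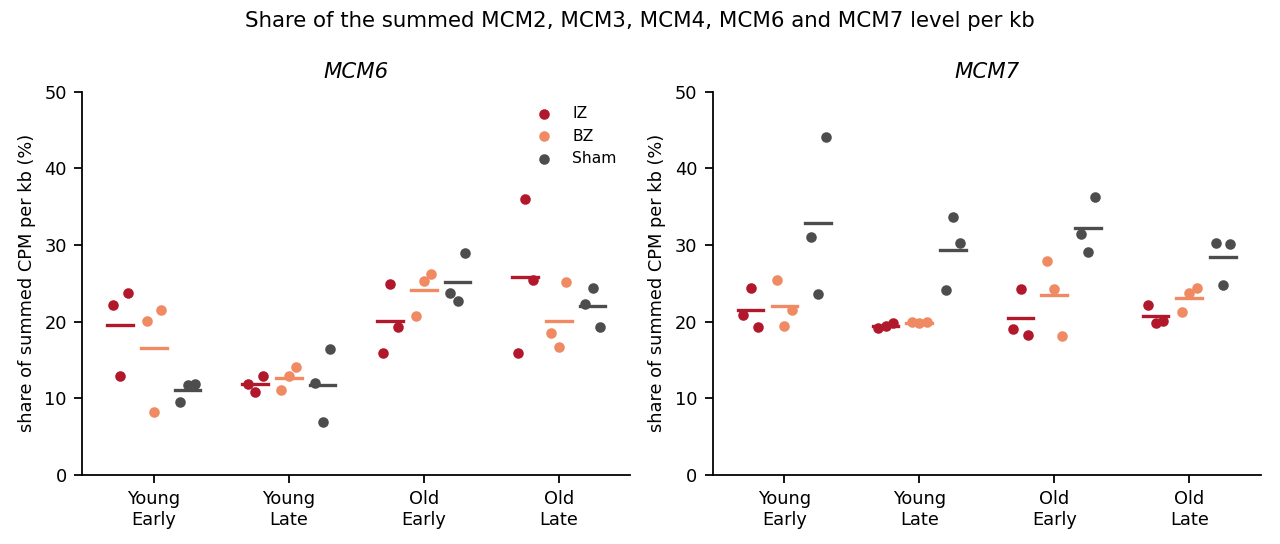
Share of MCM6 and of MCM7 in the summed CPM per kb of MCM2, MCM3, MCM4, MCM6 and MCM7 in each library, in percent, with IZ, BZ and Sham from left to right in each condition. MCM6 takes 9.47% to 11.8% in Young Early Sham and over 12% in the 3 Young Early IZ libraries, and the MCM7 share is lower in IZ than in Sham without overlap in Young Late, Old Early and Old Late.

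Of the loaders, CDC6 was higher in IZ in all 4 conditions, by 1.23 to 1.37 on the log2 scale. CDC6 had 2.54, 3.42 and 2.97 CPM in Young Early IZ, against 1.14, 1.68 and 0.619 CPM in Young Early Sham. It had 4.69, 4.87 and 6.08 CPM in Young Late IZ, against 2.70, 3.33 and 0.755 CPM in Young Late Sham. No IZ library fell within the Sham range in these or in the Old groups, which are next. CDC6 had 3.01, 1.86 and 2.36 CPM in Old Early IZ, against 0.958, 1.20 and 0.917 CPM in Old Early Sham, and 4.36, 2.17 and 3.29 CPM in Old Late IZ, against 1.05, 1.77 and 0.986 CPM in Old Late Sham. The rise was 1.33 ± 0.38 in Young Early (edgeR adjusted p = 0.011), 1.25 ± 0.37 in Young Late (adjusted p = 0.0106), 1.23 ± 0.38 in Old Early (adjusted p = 0.0134) and 1.37 ± 0.36 in Old Late (adjusted p = 0.00253). The Old Late call of CDC6 was kept without each library and under all 9 other settings. The Young Early call was lost without Sham replicate 3 (1.06, adjusted p = 0.0712). The Young Late call was lost without Sham replicate 3 (0.81, adjusted p = 0.0961) and when only IZ and Sham of this condition were fitted (1.21, adjusted p = 0.0557). The Old Early call was lost without Sham replicate 3 (1.15, adjusted p = 0.0565) or IZ replicate 1 (1.04, adjusted p = 0.0741).

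CDT1, the other loader and the target of geminin, was called by edgeR in the IZ of the Old pigs and not in that of the Young pigs. This split did not hold under all settings. CDT1 had 19.9, 5.83 and 10.8 CPM in Old Early IZ, against 4.95, 4.84 and 2.75 CPM in Old Early Sham, and rose by 1.55 ± 0.54 (edgeR adjusted p = 0.0273). It had 14.9, 5.96 and 9.64 CPM in Old Late IZ, against 3.85, 5.90 and 2.68 CPM in Old Late Sham, and rose by 1.29 ± 0.54 (edgeR adjusted p = 0.0469). In both groups replicate 1 was the highest IZ library and replicate 2 lay just above the highest Sham library. The Old Early call was lost without IZ replicate 1 (1.00, adjusted p = 0.216), Sham replicate 2 (1.67, adjusted p = 0.053) or Sham replicate 3 (1.31, adjusted p = 0.116), with RNA integrity as a covariate (1.26, adjusted p = 0.104) and under limma-voom with the animal as a block (1.43, adjusted p = 0.0531). The Old Late call was lost without IZ replicate 1 (1.01, adjusted p = 0.164), IZ replicate 3 (1.39, adjusted p = 0.0587), Sham replicate 1 (1.24, adjusted p = 0.113) or Sham replicate 3 (1.06, adjusted p = 0.163), with RNA integrity (0.96, adjusted p = 0.21), without the count filter (adjusted p = 0.0559) and under limma-voom with the animal as a block (1.27, adjusted p = 0.063). In the Young pigs CDT1 differed by 0.29 ± 0.52 in Early IZ (edgeR adjusted p = 0.717), where the libraries overlapped. In Young Late IZ it had 29.6, 32.5 and 27.5 CPM, against 25.9, 6.67 and 6.18 CPM in Young Late Sham. The first Sham library stood beside the IZ libraries and the other 2 far below, and the difference of 1.17 ± 0.52 was not called (edgeR adjusted p = 0.0883), but without Young Late Sham replicate 1 it was 2.22 and was called. Limma-voom with the animal as a block also called CDT1 in Young Late IZ (1.38, adjusted p = 0.042). So did edgeR under library totals alone (1.39, adjusted p = 0.0263). The difference between the Old and the Young response of CDT1 was not called, at 1.26 ± 0.75 in Early IZ (edgeR adjusted p = 0.272) and 0.12 ± 0.74 in Late IZ (adjusted p = 0.95).

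MCM10, which joins the loaded helicase when synthesis starts, was higher in IZ in all 4 conditions, and 3 of its 4 IZ calls held in every alternative. MCM10 had 4.55, 7.08 and 6.86 CPM in Young Early IZ, against 2.85, 2.78 and 1.51 CPM in Young Early Sham, and 11.7, 11.5 and 9.76 CPM in Young Late IZ, against 5.70, 2.40 and 1.51 CPM in Young Late Sham. It had 7.63, 4.61 and 7.61 CPM in Old Early IZ, against 2.50, 2.45 and 1.26 CPM in Old Early Sham, and 7.74, 4.42 and 7.81 CPM in Old Late IZ, against 1.98, 3.74 and 1.74 CPM in Old Late Sham. The libraries of IZ lay above those of Sham in each condition, with replicate 2 the lowest IZ library in both Old groups. MCM10 rose by 1.35 ± 0.42 in Young Early (edgeR adjusted p = 0.0171), by 1.72 ± 0.41 in Young Late (adjusted p = 0.0024), by 1.69 ± 0.42 in Old Early (adjusted p = 0.00239) and by 1.43 ± 0.40 in Old Late (adjusted p = 0.00452). The last 3 calls were kept without each library and under all 9 other settings. The Young Early call of MCM10 was lost without IZ replicate 3 (1.26, adjusted p = 0.0624) and without Sham replicate 3 (1.12, adjusted p = 0.0877). CDC6 and MCM10 were the 2 genes called in Young Late IZ, where 17.2% of all genes were called higher. CDC6, MCM10 and CDT1 were the 3 called in Old Late IZ, where 25.1% of all genes were called higher. RNA integrity numbers were 7.1 to 7.6 in Old Late IZ, against 7.8 to 8.4 in Old Late Sham, and mitochondrial genes took 9.75% to 11.04% of the counts in Old Late IZ, against 22.8% to 24.0% in Old Late Sham. With RNA integrity as a covariate CDC6 and MCM10 kept their calls in Old Late IZ, CDT1 lost its own and MCM6 was called (0.808, edgeR adjusted p = 0.0276). The part of the mitochondrial share was not tested. That share was 24.97% to 33.7% in Young Late IZ, against 35.1% to 42.6% in Young Late Sham. Neither count stands far from its background. The Young Late count was 1 when Sham replicate 3 was left out, and the Old Late count was 5 when IZ replicate 2 or Sham replicate 2 was.

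In the border zone, the tissue next to the infarct, 5 member calls were made over the 4 conditions, against the same Sham libraries that gave 16 in IZ. All genes also had fewer calls in BZ. In Young Early, Young Late, Old Early and Old Late, 0.784%, 8.25%, 14.1% and 20% of them were called higher in BZ. The shares in IZ were 15.2%, 17.2%, 19.5% and 25.1%. EdgeR called 0 of the 8 in Young Early BZ, where 0.784% of all genes were called higher, while 2 had an unadjusted p under 0.05 and DESeq2 called 1. That gene was MCM6, with 12.6, 11.9 and 19.7 CPM in Young Early BZ, against 6.85, 8.14 and 5.50 CPM in Young Early Sham. All 3 BZ libraries of MCM6 were above all Sham libraries, by 1.11 ± 0.29 (edgeR adjusted p = 0.0549, DESeq2 adjusted p = 0.0132). CDT1 differed by 0.89 in Young Early BZ and by -0.23 without BZ replicate 2, whose 34.6 CPM stood apart from the 5.83 and 9.35 CPM of the other 2 libraries.

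In Young Late BZ, 3 of the 8 genes were called higher, where 8.25% of all genes were, and 6 of the 8 did not overlap with Sham, against 18.2% of all genes. CDC6 had 5.75, 5.41 and 4.89 CPM in Young Late BZ, against 2.70, 3.33 and 0.755 CPM in Young Late Sham, and rose by 1.29 ± 0.36 (edgeR adjusted p = 0.0176). MCM10 had 8.72, 8.40 and 7.76 CPM in Young Late BZ, against 5.70, 2.40 and 1.51 CPM in Young Late Sham, and rose by 1.31 ± 0.41 (edgeR adjusted p = 0.0329). MCM6 had 28.1, 26.8 and 29.1 CPM in Young Late BZ, against 25.3, 9.998 and 11.5 CPM in Young Late Sham, and rose by 0.82 ± 0.28 (edgeR adjusted p = 0.0484). The BZ libraries were tight for all 3 genes, and the first Sham library was the nearest to them for MCM6 and MCM10. The call of CDC6 was lost without BZ replicate 2 (1.29, adjusted p = 0.0581) and without Sham replicate 3 (0.85, adjusted p = 0.126). The calls of MCM6 (0.60 to 0.86 where lost) and of MCM10 (0.95 to 1.36, adjusted p of 0.0624 to 0.17) were each lost on leaving out 5 of the 6 libraries in turn, and kept only without Sham replicate 1. For MCM6 the call was also lost under limma-voom with the animal as a block (0.87, adjusted p = 0.0525). In edgeR it was lost under library totals alone (0.98, adjusted p = 0.07) and without the count filter (0.84, adjusted p = 0.0642). Fitting only BZ and Sham of this condition ended the edgeR calls of MCM6 (adjusted p = 0.107), MCM10 (adjusted p = 0.0643) and CDC6 (adjusted p = 0.071).

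In the Old pigs, 1 gene was called in each BZ. It was MCM3 in Old Early BZ, where 14.1% of all genes were called higher, with 13.3, 12.4 and 17.02 CPM in BZ, against 7.29, 6.92 and 4.32 CPM in Old Early Sham. The groups did not overlap, and MCM3 rose by 1.21 ± 0.43 (edgeR adjusted p = 0.0391), but no leave-out kept the call (1.01 to 1.35, adjusted p of 0.0524 to 0.156), nor did limma-voom with the animal as a block (1.26, adjusted p = 0.0549). It was CDC6 in Old Late BZ, where 20% of all genes were called higher, with 2.69, 3.41 and 2.22 CPM in BZ, against 1.05, 1.77 and 0.986 CPM in Old Late Sham. CDC6 rose by 1.13 ± 0.37 (edgeR adjusted p = 0.0158), and its call was lost without BZ replicate 2, Sham replicate 1 or Sham replicate 3 (0.96 to 1.01, adjusted p of 0.0677 to 0.0705). The share of 1 gene in 8 called is near or below the background in both comparisons. In Old Early BZ, however, 7 of the 8 genes had every BZ library above every Sham library, as did 23.2% of all genes. For Old Late BZ it was 3 of the 8, against 30.3% of all genes.

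Compared within the same pigs, with the animal as a block over the 24 libraries of infarcted hearts, IZ and BZ differed for 2 genes and in Young Early only. MCM6 was higher in IZ by 0.80 ± 0.17 (edgeR adjusted p = 0.013) and MCM7 by 0.45 ± 0.12 (edgeR adjusted p = 0.0335), where 4.03% of all genes were called higher in IZ. MCM6 was above its own BZ in each of the 3 pigs, with 24.8 against 12.6, 18.3 against 11.9 and 34.4 against 19.7 CPM in IZ and BZ. Its call was lost without pig 1 (0.73 without the IZ library, adjusted p = 0.0671, and 0.72 without the BZ library, adjusted p = 0.0702) and without the block (0.80, adjusted p = 0.0593). MCM7 was not called without the block (0.43, adjusted p = 0.247). MCM7 was also not called without pig 1 or pig 3. In the other 3 conditions edgeR and DESeq2 called 0 of the 8 genes, where 0%, 0% and 0.438% of all genes were called higher in Young Late, Old Early and Old Late IZ. Unadjusted p-values under 0.05 numbered 0, 3 and 1 there.

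Whether the response to infarction differed with the age at surgery or with time was tested on the difference between the zone-minus-Sham differences. For Old minus Young, edgeR called 0 of the 8 genes in Early IZ, Late IZ, Early BZ and Late BZ, where 0.915%, 3.67%, 0.22% and 1.09% of all genes were called in either direction. Unadjusted p-values under 0.05 numbered 1, 0, 0 and 0, and DESeq2 called 1, 0, 0 and 0. The gene in Early IZ was MCM6, whose difference from Sham was 0.65 in Old Early IZ and 1.92 in Young Early IZ, a gap of -1.27 ± 0.40 (edgeR adjusted p = 0.0779, DESeq2 adjusted p = 0.045). In Late IZ the 8 differences ran from -0.57 to 0.15, and in Late BZ all 8 were below 0. For Late minus Early, 1 gene was called in Young IZ, where 6.2% of all genes were called lower. MCM6 differed there by -1.26 ± 0.40 (edgeR adjusted p = 0.0399), its difference from Sham being 0.66 in Young Late IZ and 1.92 in Young Early IZ. Both terms of this contrast hold a Sham group, and MCM6 was higher in Young Late Sham than in Young Early Sham. The call was lost on leaving out 8 of the 12 libraries in turn (-0.70, adjusted p = 0.17, without Young Late Sham replicate 1), with RNA integrity as a covariate (-0.998, adjusted p = 0.142), without the count filter (adjusted p = 0.0534) and under limma-voom with the animal as a block (-1.19, adjusted p = 0.0772). In Old IZ, Young BZ and Old BZ, edgeR called 0 of the 8, where 4.53%, 0.186% and 1.26% of all genes were called, and neither an unadjusted p under 0.05 nor a DESeq2 call was found.

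The levels of these genes also differed between sham hearts of different age at harvest. Between 9 and 3 days of age (Young Late minus Young Early Sham), 4 of the 8 genes were called higher, where 4.38% of all genes were. MCM7 had 95.8, 92.5 and 39.8 CPM in Young Late Sham, against 42.4, 30.9 and 38.8 CPM in Young Early Sham, and rose by 1.02 ± 0.25 (edgeR adjusted p = 0.0135). MCM6 had 25.3, 9.998 and 11.5 CPM in Young Late Sham, against 6.85, 8.14 and 5.50 CPM in Young Early Sham, and rose by 1.21 ± 0.29 (edgeR adjusted p = 0.015). MCM2 rose by 1.40 ± 0.42 (edgeR adjusted p = 0.035) and MCM4 by 1.27 ± 0.38 (edgeR adjusted p = 0.0355). Replicate 3 of Young Late Sham lay within the range of the Young Early Sham libraries for MCM2 and MCM4, while replicate 1 was far above. Without Young Late Sham replicate 1, MCM2 (0.73, adjusted p = 0.235) and MCM4 (0.85, adjusted p = 0.148) were not called, and their calls were lost on leaving out 5 of the 6 libraries in turn. With batch as a term 1 of the 4 calls was left, that of MCM7, with MCM2 at 1.33 (adjusted p = 0.095), MCM4 at 1.26 (adjusted p = 0.0809) and MCM6 at 1.06 (adjusted p = 0.0689). Under limma-voom with the animal as a block, MCM2 (1.27, adjusted p = 0.0901) and MCM4 (1.16, adjusted p = 0.0827) were not called. MCM7 was not called without Young Early Sham replicate 2 (0.90, adjusted p = 0.0602) or Young Late Sham replicate 2 (0.86, adjusted p = 0.0892), and MCM6 was not called on leaving out 3 of the 6 libraries in turn.

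Between 15 and 3 days of age, MCM6 was the 1 gene of the 8 called, and the other measured subunits differed below 0 without a call. MCM6 had 14.6, 14.7 and 12.8 CPM in Old Early Sham, against 6.85, 8.14 and 5.50 CPM in Young Early Sham, with no overlap, and rose by 1.03 ± 0.29 (edgeR adjusted p = 0.011), where 17.5% of all genes were called higher. MCM3 (-0.92) and CDT1 (-1.11) had every Old Early Sham library below every Young Early Sham library without a call. Of all genes, 26.9% lay below in this way. The 1 call and these 2 genes, of 8, are near or below the shares of all genes. The Sham groups of this comparison were each prepared in a batch of their own, and the MCM6 call was lost with batch as a term (0.85, adjusted p = 0.126), with RNA integrity (0.83, adjusted p = 0.0686) and on leaving out Young Early Sham replicate 3 (0.90, adjusted p = 0.0532). Between 21 and 9 days of age, CDT1 fell by 1.68 ± 0.55 (edgeR adjusted p = 0.0458), with 3.85, 5.90 and 2.68 CPM in Old Late Sham, against 25.9, 6.67 and 6.18 CPM in Young Late Sham, where 3.92% of all genes were called lower. The call rested on Young Late Sham replicate 1, without which CDT1 differed by -0.63 (adjusted p = 0.534). It was also lost without any of the 3 Old Late Sham libraries and under limma-voom with the animal as a block (-1.54, adjusted p = 0.101). Here age and batch cannot be told apart. Between 21 and 15 days of age edgeR called 0 of the 8, where 0.0275% of all genes were called in either direction, 2 had an unadjusted p under 0.05, and DESeq2 called 0.

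The genes that act before and after licensing were counted from 8 pathway lists. The shares of all genes to set beside them are 15.2%, 17.2%, 19.5% and 25.1% called higher and 12%, 13%, 14.8% and 24% called lower in Young Early, Young Late, Old Early and Old Late IZ. Of the 6 origin recognition subunits, edgeR called 1, 2, 1 and 2 higher in these groups and 0, 1, 1 and 0 lower, which is near the share of all genes. ORC1, the subunit whose amount varies with the cell cycle, was the member called in all 4, at 1.69 ± 0.45, 1.46 ± 0.44, 1.55 ± 0.45 and 1.25 ± 0.44. ORC6 joined it in Young Late IZ (1.35 ± 0.27) and at 21 days in the infarct zone (0.85 ± 0.26). Geminin, the inhibitor of CDT1, was called in 0 of the 8 comparisons of a zone with Sham. The 13 helicase activation genes had 6, 4, 3 and 3 members higher and 0 lower in the 4 IZ comparisons, with medians of 0.74, 0.61, 0.36 and 0.40. GINS4, a subunit of the GINS complex, was called in all 4, at 1.16 ± 0.41, 1.54 ± 0.41, 1.90 ± 0.42 and 1.99 ± 0.40. CDC45, which binds the ring beside GINS, was called in 0 of the 8. The list of 25 fork synthesis genes holds polymerases, primase and clamp loader, and further genes such as PCLAF, UHRF1, CHAF1B and DNMT1. It had 6, 6, 7 and 6 members higher and 0, 1, 0 and 1 lower, not far from the share of all genes. PCLAF, UHRF1 and CHAF1B were among the members called higher. The lower calls were both of DNMT1, at -1.59 ± 0.33 (Young Late) and -1.91 ± 0.33 (Old Late). POLE2, a subunit of the leading strand polymerase, was at 1.57 ± 0.43 in Young Early IZ, 1.29 ± 0.39 in Young Late IZ and, with surgery at 14 days, 1.40 ± 0.41 in Old Late IZ.

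Mitotic genes were counted in the same way. Of 20 mitotic genes, 3, 19, 0 and 7 were called higher in Young Early, Young Late, Old Early and Old Late IZ and 0 lower, with medians of 0.42, 1.64, -0.29 and 0.94. The Young Early count is at the 15.2% of all genes called higher, the Young Late count is far above 17.2%, and the Old Late count stands beside 25.1%. The median of the 8 licensing genes was 1.17, 0.79, 1.38 and 0.78 in the same order, and the median of all genes tested lay between -0.04 and 0.13 in the 8 comparisons with Sham. CDK1, the kinase that drives entry into mitosis, rose by 2.16 ± 0.48 in Young Late IZ and by 1.81 ± 0.47 in Young Late BZ. In Old Early IZ, where 6 licensing genes were called, TOP2A, the topoisomerase that untangles sister chromosomes, differed by -0.47 (edgeR adjusted p = 0.337), and E2F1, an activator of the licensing genes, fell by 1.13 ± 0.43 (edgeR adjusted p = 0.0434). No test was made between the lists. Of the 4 genes of deoxynucleotide supply, 0, 3, 0 and 1 were called higher, and of 10 genes of E2F factors and cyclins 1, 2, 0 and 2 were called higher and 0, 0, 1 and 1 lower. Of 8 licensing controls and further MCM proteins, 4, 1, 1 and 1 were called higher and 1, 1, 0 and 1 lower. Of 12 damage response genes, 3, 1, 2 and 3 were called higher and 0, 2, 3 and 3 lower, and CDKN1A, the p53 target that blocks cyclin kinases, was called in 0 of the 8 comparisons of a zone with Sham.

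**Figure D4:**
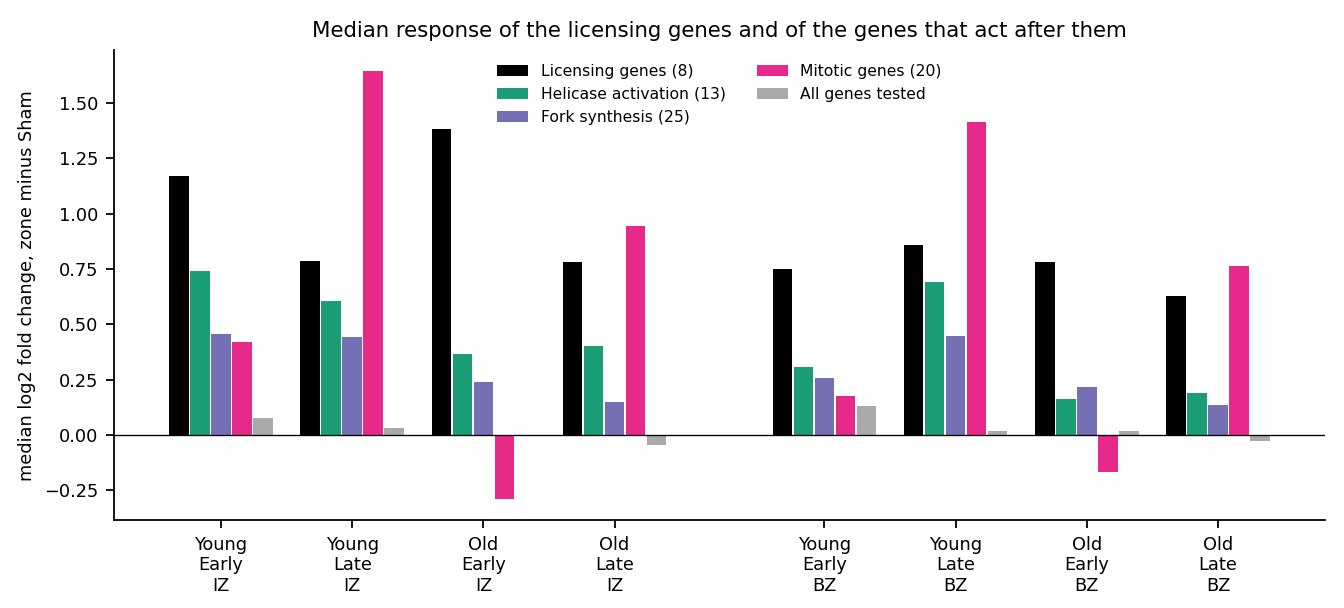
Median log2 fold change of the 8 licensing genes, 13 helicase activation genes, 25 fork synthesis genes, 20 mitotic genes and all genes tested, in IZ and then BZ against Sham for each condition. In Old Early IZ the licensing median is 1.38 and the mitotic median -0.29, while in Young Late IZ they are 0.79 and 1.64. Old Early Sham itself lay above Young Early Sham in the mitotic genes, by a median of 1.045, which is not drawn.

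Across the 36 libraries the members moved together to different degrees. These correlations of log2 CPM are a description without a test, because the libraries share groups, animals and depth. Pearson's r of a gene with the mean z-score of the other 7 was 0.976 for MCM4, 0.961 for MCM2, 0.935 for MCM3, 0.935 for CDC6, 0.899 for MCM10, 0.848 for CDT1, 0.79 for MCM7 and 0.56 for MCM6. MCM2 and MCM4 were the closest pair at 0.972, and MCM6 and CDT1 the most distant at 0.334. Of 12157 other named genes, those most like the mean z-score of the 8 were POLE (0.956), the catalytic subunit of the leading strand polymerase, MYBL2 (0.941), a transcription factor of cycling cells, GINS1 (0.932), TCF19 (0.931), PKMYT1 (0.931), an inhibitory kinase of CDK1, EME1 (0.926), RMI2 (0.914), UHRF1 (0.903), ORC1 (0.901) and POLE2 (0.9). The mean of the fork synthesis list had an r of 0.946 with that score, helicase activation 0.913, nucleotide supply 0.859, mitosis 0.694, and origin recognition 0.427.

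Cell type markers moved with the same comparisons. Of 11 cardiomyocyte markers, 9, 6, 9 and 10 were called lower in Young Early, Young Late, Old Early and Old Late IZ. Their summed level was 33620 to 56050 CPM in Young Early IZ, against 117700 to 138800 CPM in Young Early Sham, and 67290 to 90970 CPM in Young Late IZ, against 92950 to 132300 CPM in Young Late Sham. It was 31520 to 52160 CPM in Old Early IZ, against 86440 to 97780 CPM in Old Early Sham, and 25660 to 39330 CPM in Old Late IZ, against 95600 to 108000 CPM in Old Late Sham. No cardiomyocyte marker was at 0 in any group, so the labelled heart muscle was seen in IZ as well.

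Of 14 macrophage markers, 6, 13, 8 and 12 were called higher in the same 4 comparisons. Their sums were 229.8 to 293.9 CPM in Young Early IZ, against 165.7 to 241.6 CPM in Young Early Sham, and 735.1 to 982.4 CPM in Young Late IZ, against 82.8 to 96.2 CPM in Young Late Sham. They were 314.5 to 792.3 CPM in Old Early IZ, against 177.3 to 246.0 CPM in Old Early Sham, and 831.2 to 1080 CPM in Old Late IZ, against 135 to 199 CPM in Old Late Sham. No macrophage marker was at 0 in any group, and the ranges of IZ and Sham overlapped in Young Early alone. Of 11 fibroblast markers, 5, 9, 9 and 11 were called higher, with sums of 1612 to 3677 CPM in Young Early IZ, against 1209 to 1418 CPM in Young Early Sham, and 17140 to 21060 CPM in Old Late IZ, against 1306 to 1627 CPM in Old Late Sham. The fibroblast sums were 4759 to 8035 CPM in Young Late IZ, against 770.8 to 1356 CPM in Young Late Sham, and 3246 to 3813 CPM in Old Early IZ, against 1116 to 1759 CPM in Old Early Sham.

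Of 5 neutrophil markers tested, 3, 3, 5 and 4 were called higher, with the highest sum in Old Early IZ, 42.0 to 327.7 CPM, against 2.03 to 2.71 CPM in Old Early Sham. MPO, a defining neutrophil marker, was at 0 in all 4 Sham groups, in Young Early BZ and in Old Early IZ. Of 11 lymphocyte markers, 1, 4, 4 and 9 were called higher, with sums of 108.3 to 146.7 CPM in Old Late IZ, against 38.1 to 52.9 CPM in Old Late Sham. Of 10 endothelial markers, 1, 0, 7 and 0 were called higher and 0, 5, 0 and 4 lower, and of 10 markers of smooth muscle and pericytes 1, 5, 6 and 7 were called higher and 1, 1, 0 and 1 lower. Of 5 red cell precursor markers, 0 were called higher and 1 was called lower, in Old Late IZ. Over the 36 libraries the licensing score had an r of -0.329 with the cardiomyocyte list, 0.323 with the macrophage list, 0.322 with the fibroblast list and -0.409 with the endothelial list. The part of the cell mixture in the licensing differences was not tested.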

How the data were processed

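RNA was measured in 36 left ventricular libraries. Per the labels' protocols, polyA RNA went into stranded TruSeq libraries. The authors deposited raw counts per gene, and the submitters' processing notes name Trimmomatic 0.36, bcl2fastq 2.19.0.316, featureCounts (Subread 1.5.1) and STAR. Build, annotation and strand setting are not given in the sources used here. All counts were scaled by TMM, filtered with filterByExpr (minimum count 10, minimum total 15) and fitted with edgeR 4.0.16 in R 4.3.3 (quasi-likelihood, robust, 14537 genes, 24 residual degrees of freedom), with Benjamini-Hochberg adjustment over all genes in each of 24 comparisons. IZ against BZ used the animal as a block (14386 genes, 8 residual degrees of freedom). This pairing comes from the pig number in the sample titles, and 1 library (Old Late BZ replicate 3) has a conflicting individual label. Replicate numbers follow no label and pair nothing else. Rose and fell are used at an adjusted p under 0.05.

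The members, the 16 lists and the named genes were chosen with earlier results of these data known. Named genes are the 10 members, a panel of 12, up to 3 called list members per zone comparison and the 10 genes with the highest correlation with the members, and the text prints some of these. DESeq2 1.42.0 and limma 3.58.1 gave alternatives. The scripts were tested on simulated data. The labels tie each Sham library to its own pig.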

Additional observations from a re-analysis of the deposited data

Results flagged for a closer look

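The MCM6 response in IZ of Young pigs differed between the times by a test of the difference itself: Late minus Early was -1.26 ± 0.40 (edgeR adjusted p = 0.0399). MCM6 differed from Sham by 0.66 ± 0.28 in Young Late IZ and by 1.92 ± 0.29 in Young Early IZ. Its level was 23.3 to 26.1 CPM in Young Late IZ and 18.3 to 34.4 CPM in Young Early IZ, against 9.998 to 25.3 CPM in Young Late Sham and 5.50 to 8.14 CPM in Young Early Sham. The IZ libraries of the times thus overlapped, and the Sham libraries did not. The call was lost on leaving out 8 of the 12 libraries in turn (-0.70, adjusted p = 0.17, without Young Late Sham replicate 1), with RNA integrity as a covariate (adjusted p = 0.142), without the count filter (adjusted p = 0.0534) and under limma-voom with the animal as a block (adjusted p = 0.0772).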

How the results depend on the processing

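Of 21 member calls against Sham, 7 held without each library in turn and under all 9 other settings: MCM6 in Young Early IZ, MCM3 and MCM4 in Old Early IZ, CDC6 in Old Late IZ and MCM10 in the other 3 IZ groups than Young Early. Of 3184 gene values under an alternative, 112 lost a call, 69 gained 1 and 8 reversed. The other 2995 stayed called or stayed uncalled. Of these, 223 changed sign, where the main difference was under 1 SE and neither value was called. The causes were not tested beyond the construction of each alternative.

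The count of members called moved by over 1.5 times as follows. Scaling by library totals alone, which moved the median of all genes by up to 0.61 on the log2 scale, gave 7 in Old Late IZ, 6 in Old Early BZ, 3 in Old Late BZ, 0 in Sham of Old Late minus Young Late and 6 in Young Early IZ minus BZ. DESeq2 gave 1 in Young Early BZ, 3 in Old Late BZ, 1 in Early IZ of Old minus Young, 4 in Sham of Old Late minus Young Late and 4 in Young Early IZ minus BZ. With RNA integrity the count was 0 in Young IZ of Late minus Early, 0 in Sham of Old Early minus Young Early, 0 in Sham of Old Late minus Young Late and 2 in Sham of Young Late minus Young Early. The compared groups alone gave 1 in Young Late IZ, 5 in Old Late IZ, 0 in Young Late BZ, 3 in Old Late BZ, 1 in Early IZ of Old minus Young, and, in the same 3 Sham comparisons, 3, 0 and 2. Limma-voom with the animal as a replicate block gave 0 in Old Early BZ, 0 in Young IZ of Late minus Early, 0 in Sham of Old Late minus Young Late and 2 in Sham of Young Late minus Young Early, and moved no other count by over 1.5 times. Without the filter the count was 0 in Young IZ of Late minus Early and 0 in Sham of Old Late minus Young Late. Batch as a term gave 0 in Sham of Old Early minus Young Early and 1 in Sham of Young Late minus Young Early, and it was not run for Old Late Sham against other Sham groups, because batch 3 holds only Old Late libraries. Without the replicate block Young Early IZ minus BZ had 0, and with the conflicting individual label 1.

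Leaving out 1 library gave 1 to 5 members called in Young Early IZ, 1 to 6 in Young Late IZ, 3 to 6 in Old Early IZ, 2 to 5 in Old Late IZ, 0 to 2 in Young Early BZ, 0 to 6 in Young Late BZ, 0 to 1 in Old Early BZ and 0 to 2 in Old Late BZ. It gave 0 to 1 in Early IZ of Old minus Young, 0 to 1 in Young IZ of Late minus Early, 0 to 1 in Sham of Old Early minus Young Early, 0 to 5 in Sham of Old Late minus Young Late, 1 to 5 in Sham of Young Late minus Young Early and 0 to 3 in Young Early IZ minus BZ. Values that reversed were MCM3 in Young Early IZ minus BZ, at -0.038 without the replicate block, -0.051 without IZ replicate 1 and -0.056 without BZ replicate 1 (-0.056 to 0.829 on leaving out 1 library), and CDT1 in Young Early BZ at -0.233 without BZ replicate 2 (-0.233 to 1.292). Without Young Late Sham replicate 1, Old Late minus Young Late Sham was 0.101 for MCM2 (-0.952 to 0.101) and 0.399 for MCM10 (-0.839 to 0.399), and Young Late minus Young Early Sham was -0.484 for CDT1 (-0.484 to 0.906) and -0.359 for MCM10 (-0.359 to 0.829). Of 96 group means per kb, 28 moved by over 1 SD under library totals alone. Depth limits CDC6, with as few as 9 counts in a library.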
